A study of Mus musculus with 48 samples.

Results

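The third complementarity-determining region of the antibody heavy chain (HCDR3) is built where an IGHV, an IGHD and an IGHJ gene segment are joined, and it lies at the centre of the antigen-binding site. Bases trimmed from the segments and nontemplated bases added between them make it the most variable stretch of the B cell receptor (BCR). Arginine (R) and lysine (K) carry a positive charge at neutral pH, and arginine-rich HCDR3s are known from antibodies that bind DNA, whose backbone is negatively charged. The positively charged HCDR3 clonotypes described here are those of 8 to 16 residues with 3 or more R or K, counted from the third residue of the HCDR3 on, so that the final IGHV arginine at the second residue does not count. Sequences with the same IGHV and IGHJ genes and the same translated HCDR3 form a clonotype. By this rule 16350 of 2879529 clonotypes of 8 to 16 residues were charged, or 0.568%, of 3182102 clonotypes of any length.

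BCR heavy-chain RNA of the lacrimal gland (LG), which secretes the watery part of tears, and of the spleen was sequenced in 24 C57BL/6 (B6) mice, giving 48 libraries. In the NOD-FMT group (n = 10), mice aged 5 weeks received by daily gavage for 3 weeks the fecal supernatant of 30 male NOD.B10.H2b mice over 20 weeks old, a strain with spontaneous autoimmune dry eye. In the PBS-T group (n = 9) the gavage was PBS on the same timetable. Both groups had feces mixed between cages for 7 days and then ampicillin, vancomycin and metronidazole in the water for 7 days, so antibiotics were common to both, and the NC group (n = 5) was untreated B6 mice. The comparisons ask whether charged HCDR3s differ between groups, tissues, isotypes, mutation states and gene segments.

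A count is 1 consensus sequence built from reads that share a molecular identifier. After removal of identical sequences present in 3 or more mice of a tissue, counts per library ranged from 40105 to 264365 in the LG and from 71859 to 2032338 in the spleen. Gland depth went with group, with a median of 144958 counts in NOD-FMT, 57709 in PBS-T and 75358 in NC glands. Its part in the gland differences below was not tested. IGHA made up a median of 96.5% of LG counts and IGHM a median of 69.8% of spleen counts. PBS-T 5 stood apart in the LG, with 15814 clonotypes of 8 to 16 residues where the other glands held between 490 and 2225. Of the 24 LG libraries, 11 were named as merged by the submitters (6 NOD-FMT, 4 PBS-T and 1 NC), without saying what was merged.

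Charged HCDR3s with high shares of a gland, though not all of them, are printed first, with IGHV2-2 IGHJ4 ARNKGLRRESAMDY, the charged clonotype found in the most glands. Each is the most abundant nucleotide form of its clonotype, 5′ to 3′, with the R and K codons from the third residue on in capitals.
IGHV8-12 IGHJ2 ARRLRRGNYFDY: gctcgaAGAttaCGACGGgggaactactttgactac
IGHV1-39 IGHJ4 ARSRLRPRLMDY: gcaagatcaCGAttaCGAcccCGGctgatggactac
IGHV1-53 IGHJ4 ARRTRLRYAMDY: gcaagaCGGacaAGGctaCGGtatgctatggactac
IGHV1-26 IGHJ2 ARRQLRLRNYFDY: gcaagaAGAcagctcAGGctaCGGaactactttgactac
IGHV6-6 IGHJ1 TRRRLRFWYFDV: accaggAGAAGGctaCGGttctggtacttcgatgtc
IGHV6-6 IGHJ1 TRRRLRYWYFDV: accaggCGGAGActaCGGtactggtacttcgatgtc
IGHV2-2 IGHJ4 ARNKGLRRESAMDY: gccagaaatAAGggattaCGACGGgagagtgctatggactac

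The next set holds 5 of the 7 charged clonotypes found in 4 or more spleens, those first by number of spleens and then by total counts.
IGHV1-18 IGHJ4 ARRGLRRAMDY: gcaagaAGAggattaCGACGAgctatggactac
IGHV5-17 IGHJ4 ARRGLRRGYAMDY: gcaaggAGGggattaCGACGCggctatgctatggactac
IGHV5-17 IGHJ4 ARRGLRRDYYAMDY: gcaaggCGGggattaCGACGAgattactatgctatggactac
IGHV1-26 IGHJ4 ARRGLRRAMDY: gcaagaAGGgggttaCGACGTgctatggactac
IGHV1-26 IGHJ4 ARRRRGYYAMDY: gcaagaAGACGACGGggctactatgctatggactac

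The last set is from 1 spleen, PBS-T 8, where the 3 most abundant charged clonotypes of the PBS-T group were variants of one another, all with IGHV1-55, IGHJ1 and 15 residues.
Variant 1: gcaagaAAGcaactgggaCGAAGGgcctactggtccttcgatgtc
Variant 2: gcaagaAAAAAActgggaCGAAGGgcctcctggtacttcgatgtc
Variant 3: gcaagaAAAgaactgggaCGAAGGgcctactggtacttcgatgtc

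Most members sat at the edge of the rule. Exactly 3 R or K were held by 15229 clonotypes (0.529% of those of 8 to 16 residues), 4 by 1071 (0.0372%) and 5 by 50, while no clonotype held 6 or more. Just outside the rule, 134118 clonotypes (4.66%) held 2. The charge came mainly from arginine, which made up 43094 of the R and K residues against 7127 lysines, or 85.8%, and 64.4% of the members held no lysine. In the clonotypes outside the rule arginine made up 82.7% of R and K. Aspartate (D) and glutamate (E), which are negatively charged, were absent from the third residue on in 9.23% of the members and in 12.02% of the other clonotypes. A net charge of 3 or more (R and K minus D and E) was reached by 2118 members, or 12.95%.

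In the gland, charged clonotypes were a larger share of the NOD-FMT repertoires on average than of the PBS-T or NC repertoires, but no group difference passed the adjustment over the 12 group comparisons. The share was 1.28% ± 0.730 (SD, n = 10) of clonotypes of 8 to 16 residues in NOD-FMT glands, 0.592% ± 0.430 (n = 9) in PBS-T glands and 0.461% ± 0.238 (n = 5) in NC glands. NOD-FMT glands ranged from 0.315% in NOD-FMT 7 to 2.52% in NOD-FMT 1, with a median of 1.26%. PBS-T glands ranged from 0.256% in PBS-T 1 to 1.64% in PBS-T 9, with a median of 0.408%. The NC glands held 0.597%, 0.547%, 0.208%, 0.216% and 0.736%. The groups overlapped, with NOD-FMT 4, 6 and 7 within the NC range and PBS-T 9 above the NOD-FMT median. The difference of 0.687 percentage points between NOD-FMT and PBS-T had p = 0.0256 in a two-sided exact permutation test over 92378 splits of the mice, and an adjusted p of 0.188. That between NOD-FMT and NC was 0.818 points (exact permutation p = 0.0313, adjusted p = 0.188), and that between PBS-T and NC 0.131 points (exact permutation p = 0.637, adjusted p = 0.718).

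These shares rest on few clonotypes, from 2 to 60 charged members a gland, and the 95% Wilson interval of NOD-FMT 1, the highest, ran from 1.86% to 3.39% for counting error only. Within the glands named as merged the NOD-FMT minus PBS-T difference was 0.716 points (exact permutation p = 0.181), and within the others it was 0.706 points (exact permutation p = 0.0714). Related clonotypes, with HCDR3s within 1 residue of a more abundant one, were also merged into it whatever their IGHV and IGHJ genes. This alternative was chosen after the data had been seen. The NOD-FMT mean became 0.947% ± 0.401 and the PBS-T mean 0.715% ± 0.551, a difference of 0.233 points with an adjusted p of 0.613 in the exact permutation test. NOD-FMT minus NC was 0.536 points with this merging (exact permutation p = 0.0137, adjusted p = 0.164). A minimum of 5 counts gave 0.434 points for NOD-FMT minus PBS-T (exact permutation p = 0.260, adjusted p = 0.612). For NOD-FMT minus NC it gave 0.830 points (exact permutation p = 0.0050, adjusted p = 0.0599). With 4 or more R or K the NOD-FMT minus PBS-T and NOD-FMT minus NC differences were -0.0425 and -0.0410 points, and with a net charge of 3 or more 0.000848 and -0.00849 points, none of them called. Only 8 gland clonotypes, in 6 glands, met the first of these rules, and 11 glands held a member under the second. With most glands at 0, these values cannot decide on a group difference. After the merging of related clonotypes NOD-FMT 1 fell from 41 charged clonotypes to 5, NOD-FMT 2 from 27 to 5 and NOD-FMT 8 from 13 to 4.

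**Figure D1:**
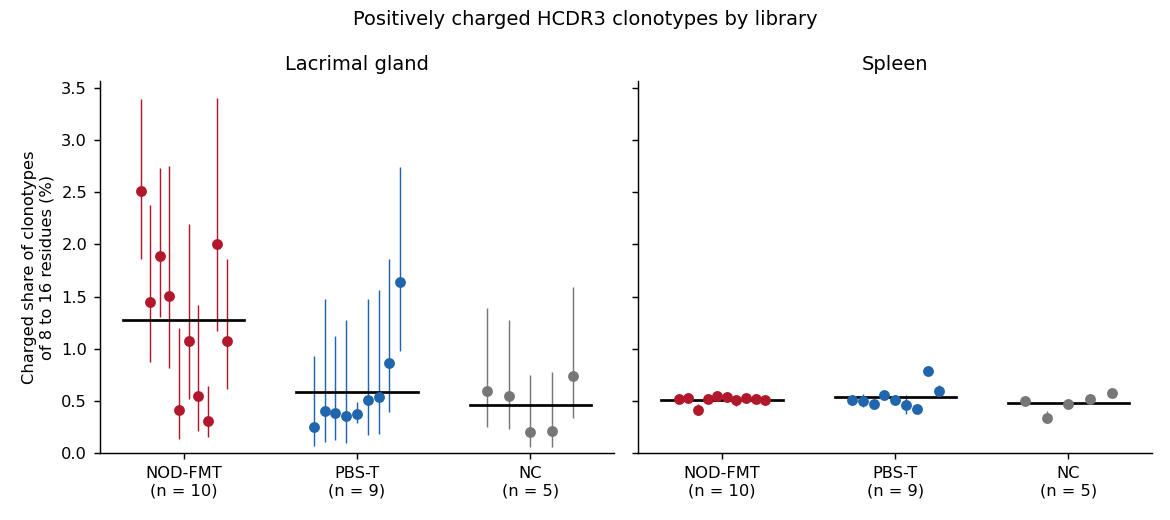
Charged share of the clonotypes of 8 to 16 residues in each library (percent, vertical axis) by group, LG on the left and spleen on the right. Points are mice, thin bars are 95% Wilson intervals and horizontal lines are group means. The NOD-FMT glands spread from 0.315% to 2.52%, while the spleens lie between 0.343% and 0.787%.

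In the spleen, the groups lay close together by clonotypes. The share was 0.515% ± 0.037 in NOD-FMT spleens (lowest 0.416%, median 0.521%, highest 0.549%) and 0.535% ± 0.108 in PBS-T spleens (0.425%, 0.508% and 0.787%). The NC spleens held 0.505%, 0.343%, 0.468%, 0.521% and 0.574%. All groups overlapped, and the NOD-FMT minus PBS-T difference of -0.0208 points gave an exact permutation p of 0.658 (adjusted p = 0.718). By counts the share was 0.367% ± 0.104 in NOD-FMT, 0.639% ± 0.808 in PBS-T and 0.368% ± 0.195 in NC spleens. The PBS-T median was 0.379%, with PBS-T 8 at 2.72%. NOD-FMT minus PBS-T was -0.272 points by counts (exact permutation p = 0.388, adjusted p = 0.704).

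Within mice, the gland exceeded the spleen in the NOD-FMT group, by 0.764 points (8 of 10 mice, two-sided exact sign-flip permutation p = 0.0137, adjusted p = 0.0398 over 5 comparisons). In PBS-T mice the gland minus spleen difference was 0.0564 points (4 of 9 mice higher in the gland, exact permutation p = 0.902), and in NC mice it was -0.0216 points (3 of 5 mice, exact permutation p = 0.812), where 5 mice cannot give a p under 0.0625. The difference of these differences between NOD-FMT and PBS-T was 0.708 points (exact permutation p = 0.0217, adjusted p = 0.0872 over 6 tests), so the gland excess was not shown to differ between the groups. Over all 24 mice the gland was higher by 0.335 points in 15 (permutation p = 0.0159, adjusted p = 0.0398). By counts the difference was 0.325 points, with the gland higher in 9 of 24 mice (permutation p = 0.278, adjusted p = 0.463). It fell to 0.128 points without NOD-FMT 8, and the gland was called lower with 4 or more R or K (-0.0377 points, adjusted p = 0.0032) and with a net charge of 3 or more (-0.0564 points, adjusted p = 5e-05). Only 8 gland clonotypes met the first of these rules, in 6 glands, and 11 glands held a member under the second. A gland without a member stands at 0 and cannot exceed its spleen, so neither call can tell the tissues apart. By clonotypes, a minimum of 2 counts gave 0.600 points for all mice (adjusted p = 0.0008) and 0.988 for NOD-FMT mice (0.00977), and a minimum of 5 counts gave 0.483 and 0.847 points (0.00488 for each). Both calls were lost when related clonotypes were merged (adjusted p = 0.0977 for NOD-FMT and 0.147 for all mice) and without the contamination filter (0.0515 for each). With 3 or more R alone they were lost too (adjusted p = 0.0642 for each). With 4 or more R or K the NOD-FMT difference was called in the opposite direction (-0.0297 points, adjusted p = 0.00977). Most glands held no clonotype under that rule, so this call cannot show a reversal. With a net charge of 3 or more the NOD-FMT difference was -0.00948 points (adjusted p = 0.835). The calls were also lost when any of NOD-FMT 1, 2, 3, 5, 8, 9 or 10 or PBS-T 9 was left out, and adjusted p over all mice left out in turn ranged from 0.0312 to 0.0810.

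The same comparison was made by counts in place of clonotypes. Charged clonotypes held 1.28% ± 1.70 of the counts on HCDR3s of 8 to 16 residues in NOD-FMT glands (lowest 0.0585%, median 0.534%, highest 5.17%). In PBS-T glands the share was 0.304% ± 0.342 (0.00755%, 0.146% and 0.788%). The NC glands held 0.165%, 0.228%, 0.203%, 0.00392% and 2.91%. The groups overlapped, and NOD-FMT exceeded PBS-T by 0.978 points (exact permutation p = 0.109, adjusted p = 0.435). Leaving out NOD-FMT 8 moved it to 0.545 points.

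Among charged clonotypes, the highest share of any library was that of IGHV8-12 IGHJ2 ARRLRRGNYFDY, with 3485 counts or 3.76% of the NOD-FMT 8 gland (95% Wilson interval 3.64% to 3.89%). It made up 77.2% of the charged counts there, 98.6% of its counts were IGHA, and its own spleen held 49 counts of it. A single count lay in the gland of NOD-FMT 3. NC 5, an untreated mouse, held IGHV1-39 IGHJ4 ARSRLRPRLMDY at 2.60% of the gland (1963 counts) and at 0.0639% of its spleen (343 counts), with no unmutated form among its 72 unique sequences. NOD-FMT 1 held IGHV1-53 IGHJ4 ARRTRLRYAMDY at 1.42%, with 3440 counts in the gland and none in any spleen. Its second clone, IGHV1-26 IGHJ2 ARRQLRLRNYFDY, stood at 0.880% of the gland (2128 counts) and 0.0172% of the spleen (81 counts). Large charged clones were thus present in treated and untreated mice, and those named here were of the IGHA isotype for 91.7% or more of their counts.

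PBS-T glands were led by 2 clones of IGHV6-6 and IGHJ1 that came from different mice and differ at a single printed residue. PBS-T 8 held TRRRLRFWYFDV at 0.580% (471 counts in the gland, 85 in its spleen), and PBS-T 7 held TRRRLRYWYFDV at 0.423% (213 counts in the gland, 84 in its spleen). Beyond these, a single charged clonotype made up from 33.3% of the charged counts of a gland (PBS-T 3, where it had 1 count) to 99.5% (NC 5). IGHA made up a median of 93.6% of the charged counts of a gland, with a range from 0% to 100%. It was below 50% in 8 glands: NC 2, NOD-FMT 5 and 7 and PBS-T 1, 2, 3, 6 and 9. Some of these values rest on almost no counts. PBS-T 1 and PBS-T 3 had 3 charged counts each, and in PBS-T 6 the leading clonotype had 2 counts, or 50% of the charged counts. In PBS-T 9, where 5.74% of the charged counts were IGHA, the leading clonotype used IGHV7-3 and IGHJ4 and made up 35.0% of the charged counts.

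Part of the charged gland clonotypes was also present in the animal's own spleen, with a mean over mice of 29.4% for charged and 32.9% for other gland clonotypes (difference -3.42 points, higher in 10 of 24 mice, permutation p = 0.483). With single mice left out the difference ran from -5.40 (without NC 5) to -0.907 points (without PBS-T 4), uncalled throughout. With a net charge of 3 or more it was -21.4 points and called (adjusted p = 0.0371), over the 11 mice that gave a value. The share among charged clonotypes was 0 of 60 in PBS-T 5, where 1.91% of the other gland clonotypes were also in the spleen. It reached 5 of 6 in NC 5 and 9 of 14 in PBS-T 9. In all, 57 charged clonotypes occurred in at least 1 gland and at least 1 spleen.

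Between mice, charged clonotypes were seldom shared. In a spleen, 1.94% of the charged clonotypes also occurred in the spleen of another mouse, against 13.9% of the other clonotypes. The difference of -11.9 points had the same sign in 24 of 24 mice (permutation p = 1e-05, the smallest that 100000 draws can give, adjusted p = 1.33e-05). With related clonotypes merged it was -6.48 points, with the same adjusted p. Among the other clonotypes, those of 8 residues were in 2 or more spleens in 11.8% of cases and those of 16 residues in 1.68%. With the other clonotypes weighted to the lengths of the charged ones the difference was -7.96 points, again with charged lower in 24 of 24 mice. At 12 residues 1.01% of charged and 4.44% of other clonotypes were in 2 or more spleens, and at 14 residues 0.743% and 3.50%.

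Of 16159 charged spleen clonotypes, 135 (0.835%) were in 2 or more spleens, against 5.59% of the others, and 5 spleens was the most for any member. Those were IGHV1-18 IGHJ4 ARRGLRRAMDY, with 6 counts in all, and IGHV5-17 IGHJ4 ARRGLRRGYAMDY, with 5 counts in all. Neither was in a gland. Of the 7 charged clonotypes in 4 or more spleens, 6 used IGHJ4 and 5 held the residues GLRR, features tallied after the sequences had been seen. Over all 135 charged clonotypes in 2 or more spleens, 57 (42.2%) used IGHJ4 and 36 (26.7%) held GLRR, against 37.2% and 10.2% of the 16024 found in a single spleen, as a description with no test. Among the 5 printed above from 4 or more spleens, the exception to low counts was IGHV5-17 IGHJ4 ARRGLRRDYYAMDY, with 44 counts (0.0562%) in the NC 2 spleen and 1 count in each of 3 other spleens. Clonotypes in fewer spleens could have more counts. IGHV14-2 IGHJ2 ARRRRGYFDY, in 3 spleens, had 692 counts in NOD-FMT 7, 160 in NOD-FMT 3 and 86 in NOD-FMT 9, with 23 in the NOD-FMT 9 gland. In the gland, IGHV2-2 IGHJ4 ARNKGLRRESAMDY was in 3 glands, with 145 counts in PBS-T 5 and 1 count each in PBS-T 8 and NC 3, and in no spleen.

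**Figure D2:**
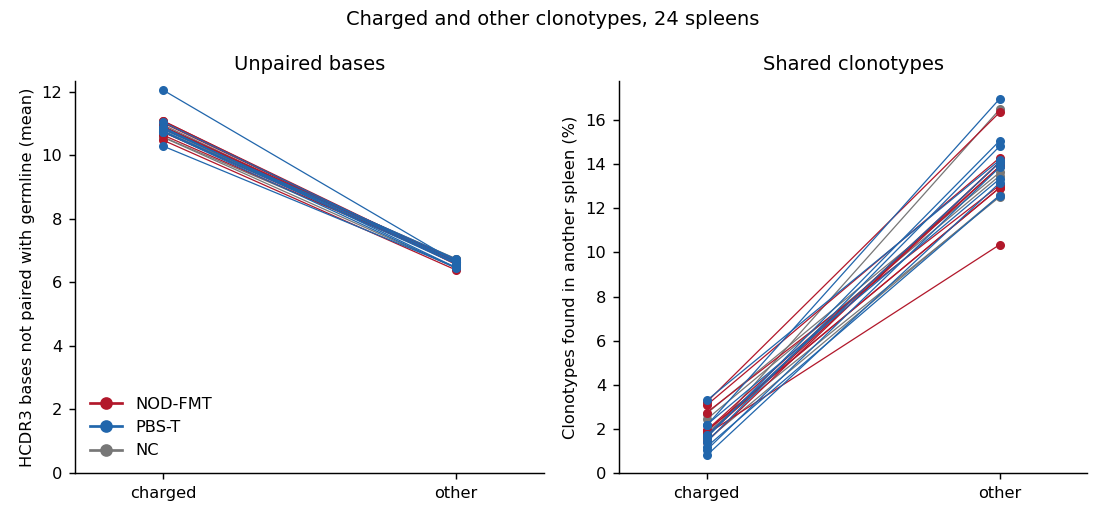
Charged and other clonotypes in each of the 24 spleens, joined by a line per mouse and coloured by group. Left, mean number of HCDR3 bases not paired with a germline gene, which runs from 10.3 to 12.1 for charged and from 6.39 to 6.75 for other clonotypes. Right, percent of clonotypes also found in another spleen, with means of 1.94% and 13.9%.

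Charged HCDR3s were longer, with a mean length over spleens of 13.2 residues against 11.8 for the others and a difference of 1.39 residues. The rule asks for a fixed number of R or K whatever the length, which favours long HCDR3s, so the lengths are given as a description. The charged share rose from 0.0308% ± 0.0231 at 8 residues to 0.327% ± 0.0719 at 11, 0.691% ± 0.0854 at 13 and 1.17% ± 0.351 at 16. At 15 residues the mean of 1.18% stood above the median of 1.01%, with PBS-T 8 at 5.81%. Among residues from the third on other than R and K, 17.3% were D or E in charged and 15.3% in other clonotypes. The denominator leaves out the R and K that the rule requires, so these shares are a description and no test. Their difference was 1.94 points, and 3.31 and 3.72 points with minimums of 2 and 5 counts.

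**Figure D3:**
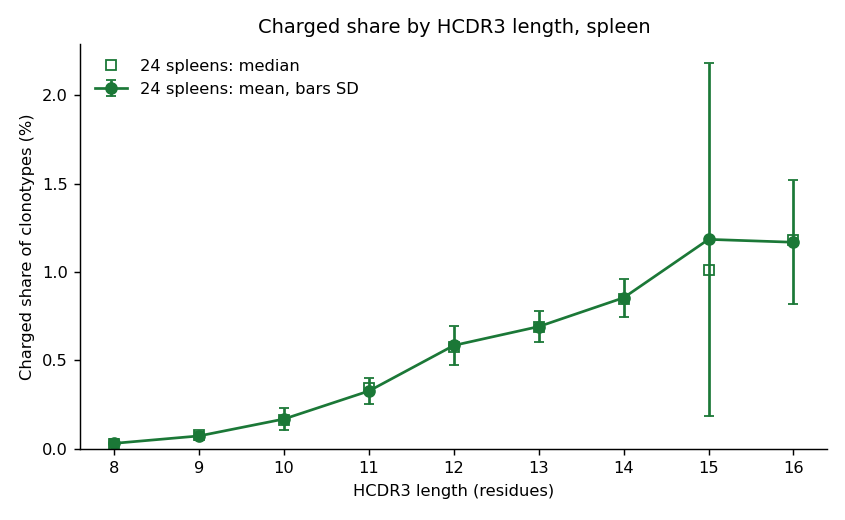
Charged share of spleen clonotypes (percent, vertical axis) by HCDR3 length in residues (horizontal axis), with filled circles for means, bars for SD and open squares for medians over 24 spleens. The share climbs from 0.0308% at 8 residues to 1.17% at 16, and the wide bar at 15 residues reflects 1 spleen at 5.81%.

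The bases of charged HCDR3s were paired less often with germline segments. An unpaired base is one that the deposited alignment assigns to no IGHV, IGHD or IGHJ base. Charged clonotypes had 10.9 ± 0.321 unpaired bases per HCDR3 and the others 6.60 ± 0.0950 (SD over 24 spleens), with charged higher in every spleen. At a fixed length of 13 residues the values were 10.6 and 7.08. The rule requires 3 or more R or K codons, and most such codons held an unpaired base, so these numbers are a description and no test. How much of the difference lay in those codons was not tested. Taken per codon, 77.7% of the R and K codons in charged clonotypes held at least 1 unpaired base, against 83.4% in other clonotypes, and 44.8% against 53.3% were wholly unpaired. Both shares were higher for charged clonotypes in 1 of 24 spleens, PBS-T 8 (88.5% against 83.2%, and 55.2% against 53.1%).

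Codon use differed in 1 codon above all. CGA made up 22.8% of the arginine codons of charged clonotypes and 9.05% of those of the others, and only 49.4% of the CGA codons of charged clonotypes held an unpaired base. AGG made up 30.5% and 39.0%. The residues LRR stood in 31.3% of charged clonotypes, against 0.621% of all clonotypes of 8 to 16 residues, followed by RLR in 22.99%, RRG in 13.7% and RRR in 13.2%. The most frequent bases behind LRR were TTACGACGG, in 36.4% of cases, as in the IGHV8-12 clone of NOD-FMT 8 printed above. Of the charged clonotypes with LRR, 52.5% were assigned to IGHD2-4 and 24.7% to IGHD2-2. Since the rule requires R or K, these motif shares describe the members and are no test.

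By D gene, the charged share ranged widely. It was 1.68% ± 0.594 for IGHD2-12, 1.57% ± 0.231 for IGHD3-2, 1.46% ± 0.695 for IGHD2-14, 1.32% ± 0.253 for IGHD2-2 and 1.13% ± 0.194 for IGHD2-4 (n = 24 spleens). It was 0.257% ± 0.0419 for IGHD1-1, the most used D gene, and 0.197% ± 0.0894 for IGHD2-5. IGHD2-4 was thus called in 22.4% of charged and 10.1% of all spleen clonotypes, and IGHD1-1 in 17.1% and 34.1%. D calls on short, trimmed segments are uncertain, and no D gene was called for 6.67% of charged spleen clonotypes.

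The IGHJ genes split evenly, with IGHJ1 and IGHJ4 above and IGHJ2 and IGHJ3 below the others. All lie in a row on the minus strand of chromosome 12 (GRCm38), from IGHJ4 at chr12:113428514-113428567 to IGHJ1 at chr12:113429781-113429833. The charged share was 0.702% for IGHJ4, or 0.256 points above the other IGHJ genes (23 of 24 spleens), and 0.682% for IGHJ1, or 0.198 points above them (23 of 24). It was 0.412% for IGHJ2 (0.155 points lower, 24 of 24) and 0.337% for IGHJ3 (0.235 points lower, 24 of 24). Each difference had a permutation p of 1e-05 and an adjusted p of 1e-05 over 4 genes. Without PBS-T 8, whose IGHJ1 family is described below, the IGHJ1 difference was 0.102 points. It was 0.0614 points with 3 or more R alone, 0.126 with related clonotypes merged, and 0.379 and 0.447 with minimums of 2 and 5 counts, called in each case. With 3 or more R alone the IGHJ2 and IGHJ3 differences were -0.0993 and -0.132 points, also called. With 4 or more R or K, which fewer clonotypes meet, IGHJ2, IGHJ3 and IGHJ4 differed by -0.0134, -0.0226 and 0.0204 points, all called. Mean HCDR3 lengths over all clonotypes of 8 to 16 residues were 12.7 residues for IGHJ1, 12.3 for IGHJ4, 11.4 for IGHJ3 and 11.1 for IGHJ2, and their part in these differences was not tested. With a net charge of 3 or more in place of the rule, IGHJ3 was called higher (0.156 points) and IGHJ4 lower (-0.0500 points, adjusted p = 1.33e-05 for both), and IGHJ1 was not called (-0.0328 points, adjusted p = 0.0661), while IGHJ2 was again lower (-0.0647 points). That rule subtracts D and E. All IGHJ1, IGHJ2 and IGHJ4 HCDR3s printed above hold D next to last, while an IGHJ3 HCDR3 such as ARVSRLRRGFAY ends in FAY. The rule thus weighs the IGHJ genes unequally, and its IGHJ calls cannot show a reversal. The IGHJ4 call was lost with a minimum of 2 counts (adjusted p = 0.126) or 5 counts (0.215), and the IGHJ1 call with 4 or more R or K (0.473).

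The IGHV gene mattered as well. Of 71 genes with 50 or more clonotypes in each spleen, 49 (69.0%) had a charged share that differed from that of the other genes (sign-flip permutation test over 24 mice, adjusted p under 0.05 over the 71 genes). It was higher in 12 (16.9%) and lower in 37 (52.1%). IGHV8-12 (chr12:115647945-115648387) stood first with 1.43% ± 0.522 (lowest spleen 0.348%, median 1.37%, highest 3.49%), ahead of IGHV1-18 with 1.18% ± 0.215 (0.820%, 1.13% and 1.83%). IGHV1-50 with 1.01% ± 0.315 and IGHV1-9 with 0.964% ± 0.203 came next, both higher than the other genes in 23 or more of the 24 spleens. IGHV1-58, with 0.828% ± 0.884, was the fifth but was not called (adjusted p = 0.104). The lowest shares were those of IGHV10-1 (chr12:114479005-114479451) with 0.0627% ± 0.0667, IGHV7-1 with 0.0974%, IGHV13-2 with 0.109%, IGHV9-4 with 0.127% and IGHV10-3 with 0.133%, all called lower.

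The rule counts the residue just after the IGHV arginine, and genes differed in how often it was R or K. R or K stood at the third residue in 57.9% of charged clonotypes, against 11.8% of the others. Among IGHV8-12 clonotypes 50.5% ± 2.30 had R or K there, and 73.0% of those codons were wholly paired with germline bases. In IGHV1-18 the value was 21.2%, with 3.35% of the codons wholly paired, and in IGHV10-1 it was 5.39%. The charged share did not follow this residue in every gene, since IGHV2-9-1 had R or K there in 19.7% of clonotypes with a charged share of 0.385%, and IGHV5-4 in 3.56% with 0.669%, genes chosen after their values were seen. When R and K were counted from the fourth residue on, the IGHV8-12 share was 0.196% ± 0.115, below the 0.412% ± 0.119 of IGHV1-18. IGHV1-50 (0.386%) and IGHV1-9 (0.387%) also stood above IGHV8-12 by this count, the reverse of their order under the rule, and IGHV10-1 had 0.0399%.

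**Figure D4:**
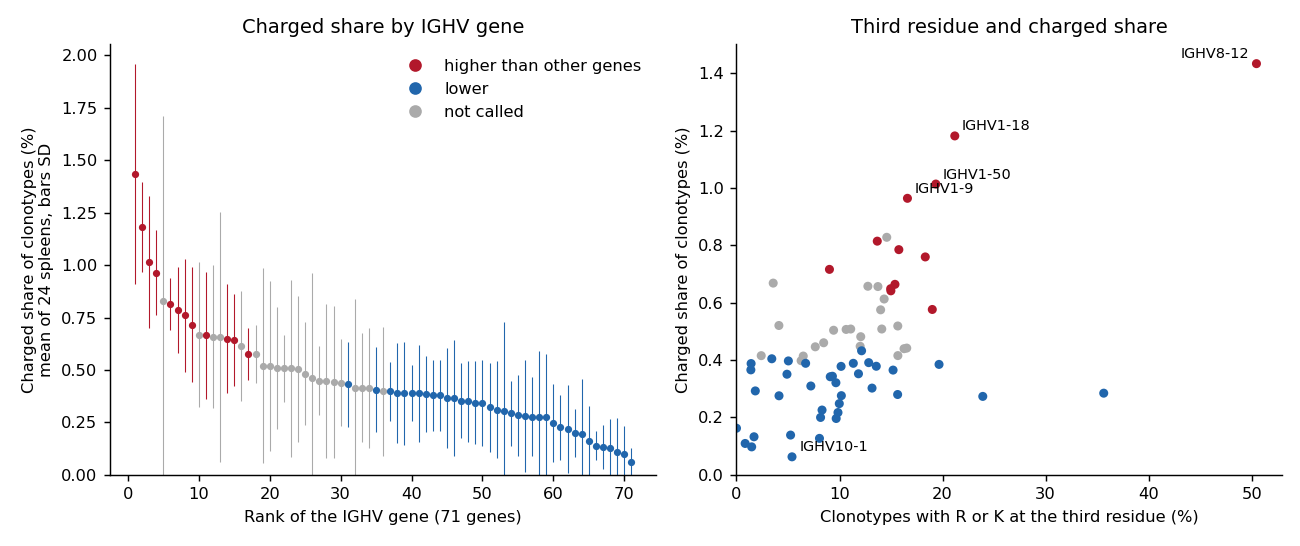
Left, charged share within each of 71 IGHV genes (percent, mean of 24 spleens with SD) in rank order, coloured by whether it was higher or lower than that of the other genes. Right, the same means against the percent of the gene's clonotypes with R or K at the third residue. IGHV8-12 lies far to the right, with R or K there in 50.5% of its clonotypes.

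Between NOD-FMT and PBS-T spleens, no IGHV gene differed in charged share (0 of 71, 0.0%, exact permutation test over the mice, lowest adjusted p 0.743), while 4 genes had an unadjusted p under 0.05.

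By isotype, IgD and IgG2b clonotypes of the spleen were charged more often than IgM clonotypes. IgM and IgD are the receptors of naive B cells, while IgG and IgA arise by class switching. The share was 0.466% ± 0.0897 in IGHM (lowest 0.295%, median 0.460%, highest 0.819%) and 0.698% ± 0.0910 in IGHD (0.442%, 0.708% and 0.819%). IGHD exceeded IGHM by 0.232 points in 23 of 24 mice (permutation p = 1e-05, adjusted p = 7e-05 over 7 comparisons). IGHG2B, with 0.688% ± 0.392 (0.111%, 0.607% and 1.75%), exceeded IGHM by 0.222 points in 17 of 24 mice (permutation p = 0.00359, adjusted p = 0.0126). The IGHD difference was not called among clonotypes of 2 or more counts (0.0852 points, adjusted p = 0.0781) or 5 or more counts (0.211 points, adjusted p = 0.230). It was called under rules that far fewer clonotypes meet, where points are not on the same scale. With 4 or more R or K the IGHD difference was 0.0168 points (adjusted p = 0.0347), and with a net charge of 3 or more it was 0.0387 points. That of IGHG2B was not called once related clonotypes were merged (0.156 points, adjusted p = 0.0722) or with 4 or more R or K (0.00575 points, adjusted p = 0.579), and it was -0.00708 points with a net charge of 3 or more (adjusted p = 0.756). The IGHG2B difference was 0.355 points with a minimum of 2 counts and 0.142 with 3 or more R alone, called in both. IGHD had nearly 1 count per sequence, with 4256 counts on 4247 unique charged sequences, where IGHM had 30437 on 14084.

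The other isotypes were not called against IGHM. IGHA held 0.529% ± 0.205 (adjusted p = 0.298), IGHG2C 0.600% ± 0.472 (0.298), IGHG1 0.435% ± 0.389 (0.786) and IGHG3 0.519% ± 0.721 (0.786), by the same permutation test. IGHA and IGHG2C were called higher than IGHM when only clonotypes of 2 or more counts were used, by 0.212 points (adjusted p = 0.00224) and 0.313 points (adjusted p = 0.00122), and again with 5 or more counts. The opposite direction was called for IGHA with 4 or more R or K (-0.0238 points, adjusted p = 7e-05) and for IGHG3 with a net charge of 3 or more (-0.0458 points, adjusted p = 0.00021). In the gland, IGHA clonotypes were charged in 0.756% ± 0.770 and clonotypes of other isotypes in 0.927% ± 0.742, a difference of -0.171 points (permutation p = 0.391, adjusted p = 0.548). With single mice left out it ran from -0.261 (without NOD-FMT 1) to -0.0948 points (without NOD-FMT 7), and it was -0.319 and -0.571 points with minimums of 2 and 5 counts, where 21 and 14 mice had a value, uncalled in each case. The sign differed by group. IGHA and other isotypes had 1.35% and 1.17% in NOD-FMT glands, 0.283% and 0.835% in PBS-T glands and 0.411% and 0.601% in NC glands, values that were not tested.

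**Figure D5:**
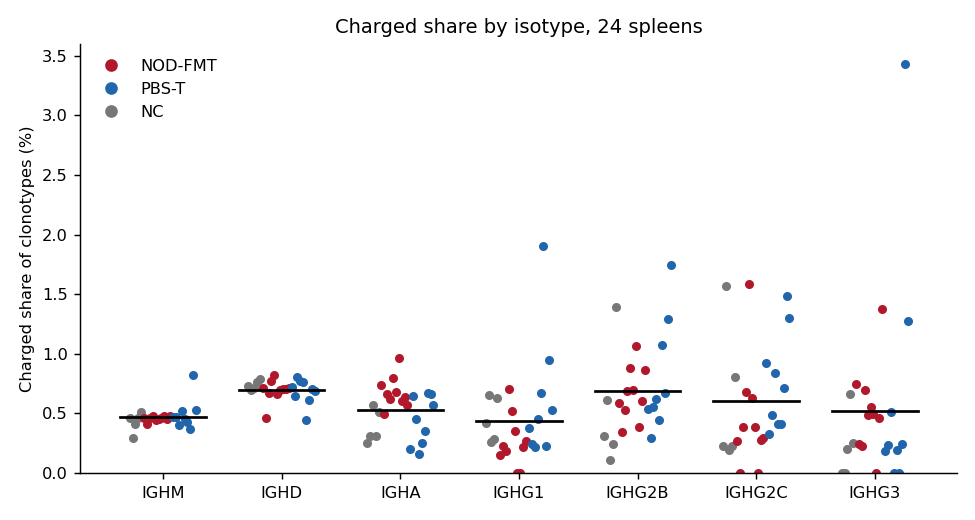
Charged share of spleen clonotypes (percent, vertical axis) by isotype, 1 point per mouse coloured by group, with the mean over the 24 spleens as a line. IGHM points have a mean of 0.466% and run from 0.295% to 0.819%. IGHD points have a mean of 0.698% and run from 0.442% to 0.819%, so the ranges overlap. The IgG subclasses, with as few as 105 clonotypes in a spleen, scatter from 0% to 3.43%.

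Somatic hypermutation changes the HCDR3 of B cells that have responded to antigen, and here a sequence was called unmutated when it had no mismatch to its IGHV gene. In the spleen, 0.478% ± 0.0494 of unmutated unique sequences and 0.544% ± 0.610 of mutated ones were charged. The difference of 0.0660 points was not called (higher in 8 of 24 mice, permutation p = 0.902, adjusted p = 0.942 over 4 comparisons). The mutated share was 3.26% in PBS-T 8 with a median of 0.383% over spleens, and without that mouse the difference was -0.0528 points (adjusted p = 0.387). IGHM sequences (0.431% unmutated, 0.521% mutated), class-switched sequences (0.494% and 0.526%) and gland sequences (0.831% and 0.805%) gave no call either (adjusted p = 0.942 for each, permutation test).

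Charged spleen clonotypes were small. A single count was behind 90.9% of them and 86.3% of the others, while 3.45% and 4.84% had 5 or more counts. In the gland 48.4% of charged and 51.4% of other clonotypes had a single count. An unmutated sequence was present in 79.9% of charged spleen clonotypes and in 82.4% of the others. In the gland these shares were 52.4% of charged and 46.9% of other clonotypes.

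One spleen held an extended charged family, chosen for description after its values were seen. In PBS-T 8, 104 charged clonotypes of IGHV1-55 (chr12:115208095-115208591) and IGHJ1 had 15 residues and the run LGRR, as in the last set printed above. Together they had 11077 counts on 1593 unique sequences, or 1.97% of all counts of that spleen and 85.3% of its charged counts. Only 8 of the sequences were unmutated, with a median of 8 mismatches to IGHV1-55, and 90.0% of the counts were IGHM. The gland of the same mouse held 3 of these clonotypes with 131 counts, and no other mouse held any. Without the family the charged share of this spleen was 0.694% in place of 0.787%, still the highest of the 24 spleens. With related clonotypes merged, the highest PBS-T spleen stood at 0.660%, below NOD-FMT 3 at 0.664%.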

How the data were processed

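The authors reverse-transcribed RNA with constant-region primers that carried molecular identifiers, amplified and sequenced it, merged reads with PEAR, kept high-quality reads, clustered them by identifier with Clustal Omega without singletons and annotated genes with IgBLAST and isotypes from IMGT. The deposited tables give, for every unique nucleotide sequence, a count of consensus sequences, its fraction of the library total and its mismatches to the IGHV gene, without normalization. The germline release is not given in the sources used here, and mm10 is the build in the submitters' processing notes. Gene positions are from GENCODE M21.

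Sequences that recurred identically in at least 3 mice of a tissue were removed (9.83% of LG and 9.84% of spleen counts). The paper reports smaller losses for a filter worded alike. Losses here were uneven between libraries. The NOD-FMT 2 gland went from 264744 to 264365 counts, the NOD-FMT 7 gland from 341412 to 261502 and the PBS-T 5 gland from 360216 to 216868. Among PBS-T spleens the lowest total was 215159 counts as deposited and 71859 after removal. The same 16350 members resulted with and without the filter used here. Shares were compared over mice, by two-sided exact permutation between groups and by sign-flip permutation within mice (100000 draws above 16 mice), with Benjamini-Hochberg adjustment within each family and a threshold of 0.05. Classes needed 50 clonotypes. The named IGHV genes are the 5 highest and 5 lowest by mean spleen share. Clonotypes to name were listed as the 3 with the highest share per group and tissue, and those in the most spleens or glands or shared between gland and spleen. Only part of that list is described. The members and lists were chosen with earlier results of these data known. Mice are separate animals by the labels. Fractions of single libraries carry 95% Wilson intervals. Intervals cover counting error only. The tests were tested on simulated data. Python 3.11.15, NumPy 2.4.6, pandas 2.3.3, SciPy 1.17.1 and Matplotlib 3.10.9 were used. Alternatives were other filters, minimum counts of 2 and 5, 4 or more R or K, net charge, R alone, length standardisation, a replicate block, merging of related clonotypes (within 1 residue and 5-fold lower in counts, added later) and each mouse left out. The merging looked at the HCDR3 residues only and not at the IGHV and IGHJ genes, so it can join clonotypes of separate origin.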

Additional observations from a re-analysis of the deposited data

Results flagged for a closer look

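Of 12 groups of shares examined (clonotype and count share, by tissue and group), 5 held a library far from the rest of their group by Dixon's criterion. Chance meets it in about 1 of 20 groups when values are normally distributed. Count shares were skewed and the groups share mice, so that rate does not carry over to these groups. In the gland, NC 5 had a charged count share of 2.91%, where the other NC glands had at most 0.228%, and 99.5% of its charged counts lay on IGHV1-39 IGHJ4 ARSRLRPRLMDY. PBS-T 9 had a charged clonotype share of 1.64%, where the next PBS-T gland had 0.861%. Its charged counts were 5.74% IGHA. In the spleen, NOD-FMT 2 was the lowest of its group with 0.416% of clonotypes, on 249 charged clonotypes (95% Wilson interval 0.368% to 0.471%, for counting error only). PBS-T 8 was the highest of its group by both measures, with 0.787% of clonotypes and 2.72% of counts, and its IGHV1-55 family of 104 clonotypes carried 85.3% of its charged counts.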

How the results depend on the processing

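Few charged clonotypes per gland (2 to 60) limit every gland value, and counting error alone spans a wide interval there. Over 38 results, 24 kept their call and direction with each mouse left out in turn. All values below are differences in percentage points unless said otherwise, and where a call or sign changed the cause was not tested.

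Without the contamination filter, gland minus spleen was 0.320 for all mice and 0.756 for NOD-FMT mice (adjusted p = 0.0515 for each). With sequences in 2 or more mice removed, the spleen count share of NOD-FMT minus NC became 0.00105 and gland minus spleen in NC mice 0.0508. With a minimum of 2 counts, IGHD minus IGHM was 0.0852, IGHA minus IGHM 0.212, IGHG1 minus IGHM 0.0710, IGHG2C minus IGHM 0.313, IGHJ4 minus the other genes 0.112 and gland minus spleen in NC mice 0.273. At this minimum 7 of 15 IGHV genes were called, and 1, IGHV7-3, differed between NOD-FMT and PBS-T spleens (adjusted p = 0.0434). With a minimum of 5 counts these values were 0.211, 0.171, 0.00462, 0.276, 0.126 and 0.0741, and 0 of 1 IGHV genes was called. Fewer clonotypes and genes could be tested under both minimums.

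With 4 or more R or K, NOD-FMT minus PBS-T in the gland was -0.0425 by clonotypes and -0.00444 by counts, and NOD-FMT minus NC -0.0410 and -0.0114. The spleen count share of NOD-FMT minus NC was 0.00812. IGHA, IGHG2B and IGHG3 minus IGHM were -0.0238 (called), 0.00575 and -0.00655, and IGHJ1 minus the other genes 0.0222. Gland minus spleen was -0.00760 for all mice, -0.0297 for NOD-FMT mice (adjusted p = 0.00977), 0.0151 for NC mice and -0.0377 by counts (called), and 32 IGHV genes were called. Only 8 gland clonotypes, in 6 glands, met this rule. The other glands stood at 0, so its gland calls cannot show a reversal. With a net charge of 3 or more, charged minus other was -21.4 for gland clonotypes found in the own spleen (adjusted p = 0.0371) and -11.2 for the acidic share, which that rule itself lowers. Under it the calls for IGHJ3 and IGHJ4 had the opposite sign, where D at the IGHJ end enters the rule, so they cannot show a reversal. NOD-FMT minus PBS-T gland counts were -0.00499, NOD-FMT minus NC in the gland -0.00849 by clonotypes and -0.000145 by counts, PBS-T minus NC -0.00934 and 0.00484, and NOD-FMT minus NC spleen counts 0.0164. IGHA, IGHG1, IGHG2B and IGHG3 minus IGHM were -0.0100, 0.0364, -0.00708 and -0.0458 (the last called), and IGHJ1, IGHJ3 and IGHJ4 minus the other genes -0.0328, 0.156 and -0.0500. Gland minus spleen was -0.00855 for all mice, -0.00948 for NOD-FMT, -0.0156 for PBS-T and 0.00602 for NC mice, and -0.0564 by counts (called). Under the net charge rule 11 glands held a member and the others stood at 0, which limits that call in the same way.

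With 3 or more R alone, charged minus other clonotypes in the own spleen was 1.76. NOD-FMT minus PBS-T in the spleen was 0.0266 by clonotypes and 0.0269 by counts, PBS-T minus NC -0.00597 and -0.0490, and IGHG3 minus IGHM -0.0353. Mutated minus unmutated was -0.0334 for all, -0.0332 for IGHM and -0.0264 for class-switched spleen sequences and 0.0474 in the gland. Gland minus spleen was 0.203 for all mice, 0.459 for NOD-FMT mice and 0.0153 for NC mice. After standardisation for length, NOD-FMT minus NC spleen counts were 0.0285 and mutated minus unmutated gland sequences 0.231. With related clonotypes merged, which was chosen after seeing the data, the own-spleen difference was 0.0521, NOD-FMT minus PBS-T in the spleen 0.0391, IGHG2B minus IGHM 0.156, IGHG3 minus IGHM -0.0248 and gland minus spleen 0.180 for all and 0.354 for NOD-FMT mice.

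The replicate numbers were not taken to pair mice of different groups. Correlations of same-numbered NOD-FMT and PBS-T spleens ran from -0.170 to 0.586, and pairing was not tested. With a replicate block, NOD-FMT minus PBS-T in the gland was 0.668 (exact permutation p = 0.0625, adjusted p = 0.375), PBS-T minus NC was -0.105 in the gland by clonotypes and -0.0527 in the spleen by counts, and no group comparison was called. Without the block by mouse, gland minus spleen in NOD-FMT mice had an adjusted p of 0.0145 and in all mice of 0.0321 (permutation).

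With each mouse left out, gland minus spleen ranged from 0.263 to 0.363 for all mice, 0.627 to 0.873 for NOD-FMT, -0.0671 to 0.0950 for PBS-T (negative without PBS-T 9) and -0.0780 to 0.0494 for NC mice (positive without NC 3 or 4). PBS-T minus NC in the gland ranged from -0.000401 (without PBS-T 9) to 0.200 by clonotypes and from -0.573 to 0.154 (without NC 5) by counts. In the spleen, NOD-FMT minus PBS-T ranged from -0.0346 to 0.0106 (without PBS-T 8), and NOD-FMT minus NC from -0.00260 (without NC 2) to 0.0552 by clonotypes and from -0.0394 to 0.0829 by counts. IGHG3 minus IGHM ranged from -0.0582 to 0.0779. Mutated minus unmutated ranged from -0.0528 to 0.0809 for all, -0.0576 to 0.105 for IGHM and -0.0203 to 0.0528 for class-switched spleen sequences, and from -0.104 to 0.0104 in the gland. By counts, NOD-FMT minus NC in the gland ranged from 0.147 (without NOD-FMT 8) to 1.13 (without NC 5), and in the spleen NOD-FMT minus PBS-T reached -0.0119 and PBS-T minus NC 0.0109, both without PBS-T 8.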

Other observations

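Isotypes were compared between NOD-FMT and PBS-T spleens after the shares by isotype had been seen, so these values are a description of a choice made on the same data. Charged clonotypes made up 0.677% ± 0.131 of IGHA clonotypes in NOD-FMT spleens and 0.441% ± 0.207 in PBS-T spleens, a difference of 0.236 points (exact permutation p = 0.00814, adjusted p = 0.0570 over 7 isotypes). NC spleens, with 0.390% ± 0.141, lay nearer to PBS-T. The NOD-FMT spleens ranged from 0.494% to 0.963% and the PBS-T spleens from 0.158% to 0.671%, so the groups overlapped. For IGHG1 the sign was the opposite, with 0.262% ± 0.219 in NOD-FMT and 0.618% ± 0.538 in PBS-T spleens (exact permutation p = 0.0425, adjusted p = 0.149). No isotype passed the adjustment.

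In 4 of the 24 glands the leading charged HCDR3 occurred under more than 1 pair of gene calls. In NOD-FMT 1, 15 clonotypes held the HCDR3 of the leading clone, ARRTRLRYAMDY, under different gene calls, and 19 of its 41 charged clonotypes were within 1 residue of it. In NOD-FMT 2, 12 clonotypes shared the HCDR3 of the leading clone, which used IGHV1-76 and IGHJ1. The leading clonotype there had 1792 counts, or 0.678% of the gland, and is not printed above. In NC 5 and NOD-FMT 9 the leading HCDR3 occurred in 2 clonotypes each.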
